A study of Mus musculus with 34 samples.

Results

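The Krüppel-like factors *Klf2*, *Klf3*, *Klf4*, *Klf5*, *Klf6*, *Klf7*, *Klf10*, *Klf11*, *Klf13*, and *Klf15* were followed through 14 RNA-Seq libraries of immortalized brown preadipocytes. These 10 genes were chosen by name from the 23109 genes that the expression files hold. Each of the 10 genes has 1 RefSeq transcript in the files, so no choice among transcripts was needed. RPKM scales a transcript's reads to its length and to the depth of the library, so levels of different genes can be set side by side per length.

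Krüppel-like factors are transcription factors that bind GC-rich and CACCC-containing DNA through zinc fingers at their C-terminal end. In fat cell formation the family is known to work in both directions. *Klf2* (a repressor of *Pparg*), *Klf3* (which recruits the CtBP co-repressors), and *Klf7* are known as inhibitors. *Klf4* and *Klf5* (which work upstream of *Cebpb* and *Pparg*), *Klf6* (a repressor of *Dlk1*), *Klf13*, and *Klf15* (an activator of the glucose transporter gene *Slc2a4* that glucocorticoids induce) are known as promoters. *Klf10* and *Klf11* were first described as genes that TGF-β induces.

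The cells were precursors of brown fat cells from the interscapular brown fat of newborn C57BL/6J pups, made to divide indefinitely with SV40T. The labels call all of them GR-flox/flox and state that such cells received Vec or Cre to give WT or GR KO cells, without saying which the RNA-Seq libraries are, whereas the methods describe WT pups. In the first experiment cells carried a retroviral FLAG-tagged histone H3.3, either WT or with lysine 36 replaced by methionine (K36M), and were collected on D0, D2, and D7 of differentiation. The inducers were insulin, T3, IBMX, dexamethasone, and indomethacin until D2, and insulin and T3 from then on. In the second experiment the same WT and K36M cells also carried retroviral PPARγ, were sub-confluent, and were given DMSO or the PPARγ ligand Rosiglitazone (Rosi). The study describes both treatments as lasting 24 h, whereas the labels give 24 h for Rosi and time 0 for DMSO. If the labels hold, the ligand and the time in culture cannot be told apart. In the third experiment cells carried a lentiviral shRNA, either a control (Ctrl) or one against the H3K36 methyltransferase gene *Nsd2* (KD), and were taken at D0 and D2. Which of the *Nsd2* shRNAs was sequenced is not named. The first experiment asks what K36M does to gene expression during adipogenesis, the second what it does to the response to the PPARγ ligand, and the third which of these changes loss of Nsd2 also brings.

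There was 1 library per condition and no replicate, so no difference has a replicate check, no test was made, and no p-value is given. The mapped reads ranged from 12213559 to 24365867 per library. Whole reads were recovered from the RPKM, and each log2 ratio has a 95% interval from the reads of the 2 libraries. That interval covers counting error only, compares libraries and not conditions, and says nothing of how cultures vary. The words rose and fell are used for a ratio over 2-fold between 2 libraries. In *Nsd2* KD cells the RPKM of *Nsd2* was 5.85 at D0 and 7.01 at D2, against 19.9 and 29.0 in Ctrl cells. Of the adipocyte markers, *Fabp4* went from an RPKM of 37.6 to 3249 between D0 and D2 in WT cells. Of 6 brown fat markers, *Ucp1* and *Cidea* were nearly absent in all 14 libraries, at an RPKM of 0.194 or less. By D2 in WT cells 4 of the 6 rose (*Ebf2*, *Elovl3*, *Ppargc1a*, and *Ucp1*) and 0 fell, beside 13.6% and 25.2% of all genes. The sum over the list went from 9.78 to 35.5, and the rise of *Ucp1* lay within the low values above. *Ebf2* was the most abundant of the 6 and lay between 3.16 and 25.4. Summed over its list, the RPKM of 5 endothelial markers was at most 2.47, of 4 macrophage and blood markers at most 3.11, and of 5 skeletal muscle markers at most 4.01. In whole-culture RNA, fewer cells of a type and less RNA per cell cannot be told apart.

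The 10 genes lie apart from each other in the mouse genome, and *Klf2* (NM_008452) is found on chromosome 8 from 74842932 to 74845555 on NCBIM37 (mm9), the build named in the submitters' notes. *Klf3* (NM_008453) is on chromosome 5 from 65194628 to 65221368, *Klf4* (NM_010637) on chromosome 4 from 55540013 to 55545347, and *Klf5* (NM_009769) on chromosome 14 from 99697910 to 99712624. *Klf6* (NM_011803) is on chromosome 13 from 5860735 to 5869639 and *Klf7* (NM_033563) on chromosome 1 from 64076021 to 64168856. *Klf10* (NM_013692) is on chromosome 15 from 38221219 to 38230464, and *Klf11* (NM_178357) on chromosome 12 from 25336236 to 25347639. *Klf13* (NM_021366) is on chromosome 7 from 71031237 to 71083801 and *Klf15* (NM_023184) on chromosome 6 from 90412570 to 90425232. All are gene bounds of the GENCODE M1 annotation. *Klf7* overlaps *Gm17427* and *Gm13748* on the other strand, and since the library kit does not mark strand their reads cannot be told apart from its own. The transcripts behind the values run from 1334 bases for *Klf7* to 6396 bases for *Klf13*.

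All 10 genes had reads in every library, but over very different ranges. *Klf15* was the most variable, from an RPKM of 0.0500 (2 reads) in KD cells at D0 to 28.1 (858 reads) in WT cells at D7. *Klf2* followed, with a 41.7-fold range from 0.284 in KD cells at D0 to 11.9 in K36M cells at D7. *Klf10* was the steadiest, between 11.4 and 27.4, a 2.41-fold range. The gene with the highest RPKM of the 10 differed between stages and between lines. At D0 it was *Klf4* in WT, *Klf6* in K36M, and *Klf3* in Ctrl and KD cells. At D2 it was *Klf10* in WT, K36M, and Ctrl cells and *Klf4* in KD cells, and at D7 *Klf13* in WT and *Klf6* in K36M cells. With ectopic PPARγ it was *Klf6* in all 4 libraries.

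**Figure D1:**
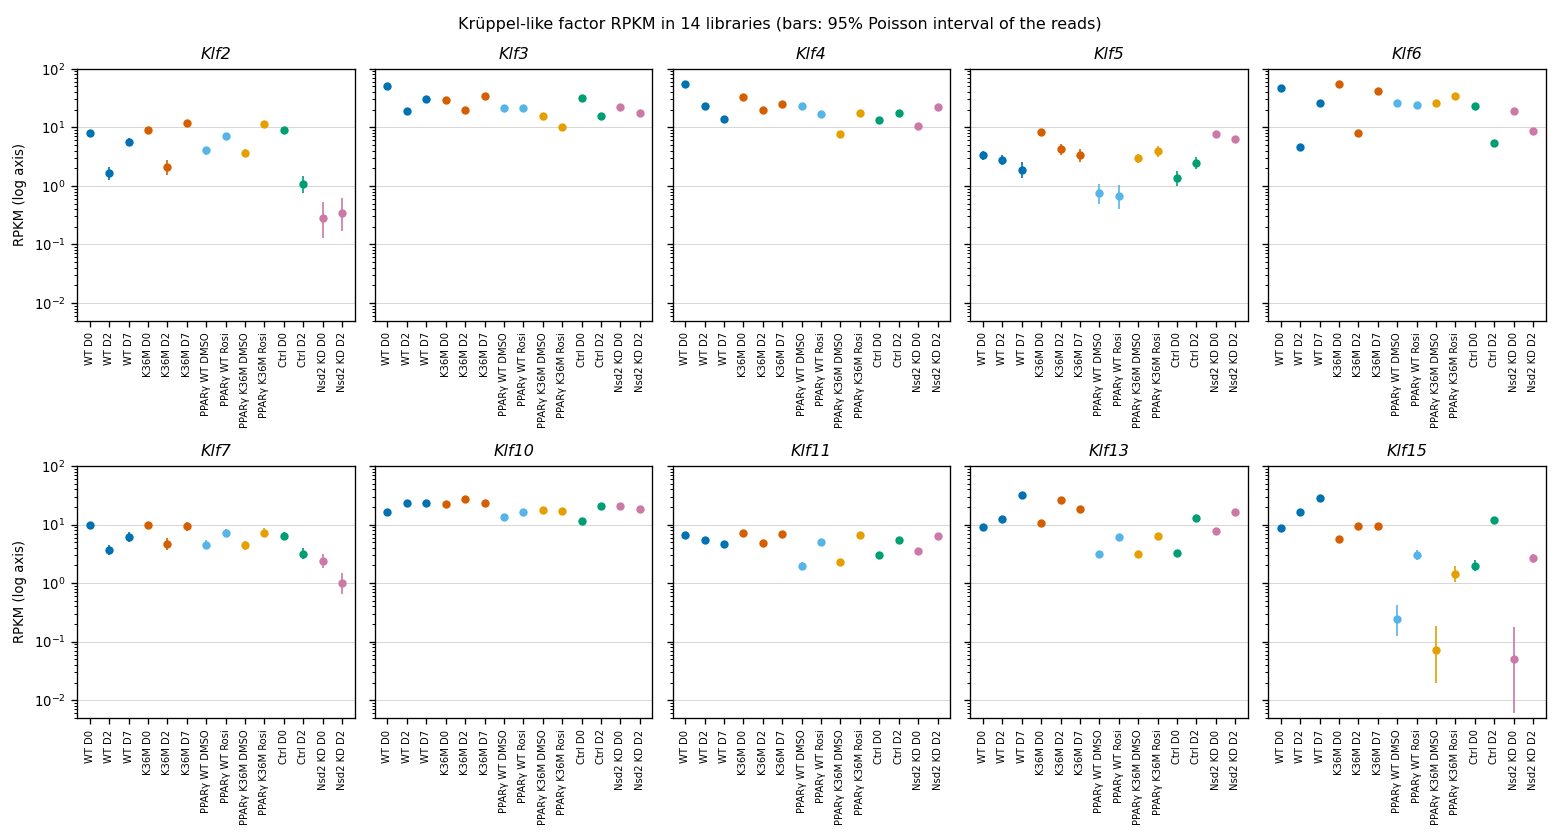
RPKM of the 10 Krüppel-like factor genes in the 14 libraries, on a log axis, with points for single libraries and bars for the exact 95% Poisson interval of the reads. *Klf2* and *Klf15* drop to 0.284 and 0.0500 in *Nsd2* KD cells at D0, while *Klf10* stays between 11.4 and 27.4.

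During the first 2 days of adipogenesis the 3 known inhibitors fell in WT cells, and *Klf6* fell most. In WT cells 0 of the 10 genes rose and 5 fell (*Klf2*, *Klf3*, *Klf4*, *Klf6*, and *Klf7*), where 13.6% of 17591 genes with reads rose and 25.2% fell. When genes below an RPKM of 1 in both libraries are left out, which removes most genes with few reads, 12155 remain, of which 9.38% rose and 17.3% fell. In K36M cells 1 gene rose (*Klf13*) and 3 fell (*Klf2*, *Klf6*, and *Klf7*), beside 16.5% and 19.6% of all genes. In Ctrl cells 2 rose (*Klf13* and *Klf15*) and 3 fell (*Klf2*, *Klf3*, and *Klf6*), beside 17.3% and 23.4%. In KD cells 3 rose (*Klf4*, *Klf13*, and *Klf15*) and 2 fell (*Klf6* and *Klf7*), beside 16.9% and 24.5%.

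**Figure D2:**
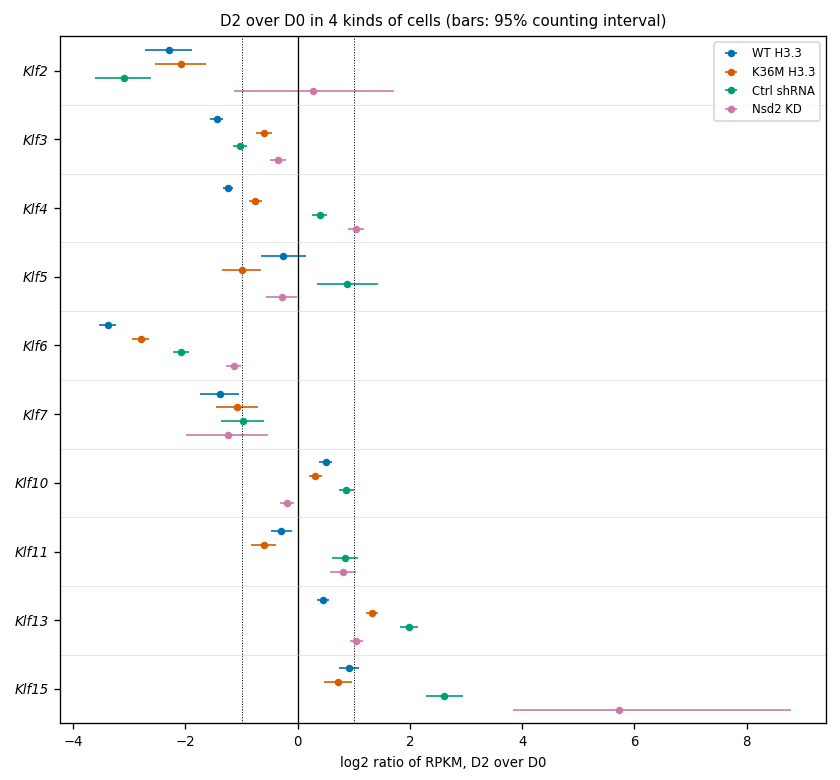
Log2 ratio of RPKM at D2 over D0 for each gene in WT, K36M, Ctrl, and *Nsd2* KD cells, with points for the ratio, bars for its 95% counting interval, and dotted lines at 2-fold. *Klf6* lies left of the 2-fold line in all 4 kinds of cells, and *Klf2* does so in all but the KD cells.

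*Klf2*, the inhibitor that acts on *Pparg*, had an RPKM of 8.03 at D0 and 1.64 at D2 in WT cells, 8.90 and 2.11 with K36M, 9.09 and 1.07 in Ctrl cells, and 0.284 and 0.343 in KD cells. The 3 D0 libraries without *Nsd2* KD were close to each other and all 3 were far above their D2 libraries. The log2 ratio of D2 over D0 was -2.29 (-2.72 to -1.88) in WT cells, -2.08 (-2.55 to -1.64) in K36M cells, and -3.09 (-3.61 to -2.61) in Ctrl cells. In KD cells it was 0.27, with an interval of -1.14 to 1.72 from 9 and 11 reads, so no change was detectable at this depth. The log2 ratio in KD cells minus that in Ctrl cells was 3.36 (2.00 to 4.72), where Ctrl cells had the fall. *Klf2* was thus already low before induction in KD cells.

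*Klf3*, the CtBP-binding inhibitor, stood at 51.8 at D0 and 19.0 at D2 in WT cells, a log2 ratio of -1.44 (-1.56 to -1.33). In K36M cells the values were 29.8 and 19.7, and the log2 ratio was -0.60 (-0.74 to -0.46). The D2 levels of these 2 kinds of cells were alike while the D0 levels were not. In Ctrl cells *Klf3* went from 31.5 to 15.5 (log2 ratio -1.02, -1.16 to -0.89) and in KD cells from 22.2 to 17.4 (log2 ratio -0.35, -0.49 to -0.21).

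*Klf7*, the third inhibitor, was lower at D2 in all 4 kinds of cells by nearly the same factor. Its RPKM was 9.78 and 3.73 in WT cells (log2 ratio -1.39, -1.74 to -1.05), 9.85 and 4.67 in K36M cells (-1.08, -1.46 to -0.71), 6.30 and 3.20 in Ctrl cells (-0.98, -1.37 to -0.59), and 2.41 and 1.02 in KD cells (-1.24, -2.00 to -0.53). The intervals of all 4 ratios overlapped.

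*Klf6*, the repressor of *Dlk1* that is listed with the promoters, fell in all 4 kinds of cells. Its RPKM was 47.8 at D0 and 4.58 at D2 in WT cells, a 10.4-fold fall and the largest among the 10 genes there. The values were 55.5 and 7.97 in K36M cells, 23.2 and 5.51 in Ctrl cells, and 19.2 and 8.71 in KD cells. The log2 ratio was -3.38 (-3.54 to -3.23) in WT cells, -2.80 (-2.95 to -2.65) in K36M cells, -2.08 (-2.23 to -1.93) in Ctrl cells, and -1.14 in KD cells, with a lower bound of -1.27. Its fall was smaller by 0.59 (0.38 to 0.80) in K36M than in WT cells and by 0.94 (0.74 to 1.14) in KD than in Ctrl cells, on the log2 scale. The 2 control lines differed more than either, with a smaller fall by 1.31 (1.10 to 1.52) in Ctrl than in WT cells. *Dlk1*, a preadipocyte gene, had an RPKM of 27.6 at D0 and 6.09 at D2 in WT cells, 21.7 and 17.4 with K36M, 38.1 and 3.51 in Ctrl cells, and 171 and 27.9 in KD cells, so it did not pass 2-fold with K36M.

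The smooth muscle markers were lower at D2 in all 4 kinds of cells, as *Klf6* was, and as *Klf2* was in all but the KD cells. The summed RPKM of *Acta2*, *Tagln*, *Myh11*, and *Cnn1* was 677 at D0 and 12.7 at D2 in WT cells, 637 and 84.8 with K36M, 1667 and 10.5 in Ctrl cells, and 168 and 9.04 in KD cells. All 4 markers had reads in every library. *Acta2*, the most abundant, had 529 and 7.73 RPKM in WT cells. Over the 14 libraries these sums ranged from 9.04 to 1772, and their part in the results of *Klf2* and *Klf6* was not tested.

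Of the other promoters, *Klf4* and *Klf5* did not move alike in the 2 control lines. *Klf4*, which acts on *Cebpb*, had an RPKM of 54.3 at D0 and 23.0 at D2 in WT cells (log2 ratio -1.24, -1.33 to -1.15) and of 33.1 and 19.7 in K36M cells (-0.75, -0.87 to -0.63). In Ctrl cells it was higher at D2, with 13.3 and 17.4 (0.39, 0.26 to 0.52), and in KD cells it rose from 10.6 to 21.9 (1.04, 0.89 to 1.19). The D0 level was highest in WT cells and lowest in KD cells, whereas the 4 D2 levels lay between 17.4 and 23.0. *Klf5*, which acts on *Pparg*, was low in these libraries, at 3.33 and 2.79 in WT cells (-0.26, -0.66 to 0.15), 8.38 and 4.21 in K36M cells (-0.99, -1.35 to -0.65), 1.35 and 2.47 in Ctrl cells (0.87, 0.34 to 1.42), and 7.65 and 6.27 in KD cells (-0.29, -0.57 to -0.0043).

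*Klf13* and *Klf15* were higher at D2 in all 4 kinds of cells, the only ones among the 10 genes to be so. *Klf13* had an RPKM of 9.06 at D0 and 12.4 at D2 in WT cells (log2 ratio 0.45, 0.35 to 0.56), 10.6 and 26.5 in K36M cells (1.32, 1.23 to 1.42), 3.24 and 12.8 in Ctrl cells (1.98, 1.82 to 2.14), and 7.89 and 16.3 in KD cells (1.04, 0.93 to 1.16). The response of *Klf13* was larger by 0.87 (0.72 to 1.02) in K36M than in WT cells and smaller in KD than in Ctrl cells, by -0.94 (-1.13 to -0.74). *Klf15*, the activator of *Slc2a4*, had 8.58 and 16.1 in WT cells (0.91, 0.73 to 1.08), 5.64 and 9.29 in K36M cells (0.72, 0.47 to 0.97), and 1.99 and 12.1 in Ctrl cells (2.61, 2.29 to 2.95). In KD cells *Klf15* went from 0.0500 to 2.64, from 2 to 107 reads, a log2 ratio of 5.72 with a wide interval of 3.83 to 8.79. It was lower in KD than in Ctrl cells at both days although its rise within KD cells was the steepest of the 4.

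*Klf10* and *Klf11*, the TGF-β-inducible pair, did not pass 2-fold in any of the 4. *Klf10* had an RPKM of 16.6 at D0 and 23.5 at D2 in WT cells (0.50, 0.39 to 0.62), 22.1 and 27.4 in K36M cells (0.31, 0.20 to 0.43), 11.4 and 20.7 in Ctrl cells (0.87, 0.73 to 1.01), and 21.0 and 18.4 in KD cells (-0.20, -0.32 to -0.07). The KD library at D0 was already at the level of the Ctrl library at D2. *Klf11* had 6.60 and 5.39 in WT cells, 7.31 and 4.81 with K36M, 3.03 and 5.40 in Ctrl cells, and 3.57 and 6.27 in KD cells. It was lower at D2 in the first 2 kinds of cells and higher in the other two, by 0.83 (0.60 to 1.07) in Ctrl and 0.81 (0.58 to 1.04) in KD cells.

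The promoter sequences of *Klf2*, *Klf6*, and *Klf15* are shown because *Klf2* and *Klf6* fell together early in adipogenesis while *Klf15* went up. Each run begins 250 bases before the RefSeq start site on GRCm38.p6 and ends 10 bases after it, on the plus strand. The windows are chr8:72318812-72319071 for *Klf2*, chr13:5861239-5861498 for *Klf6*, and chr6:90462326-90462585 for *Klf15*. Capitals mark the GC box (GGGCGG), the CCAAT box (CCAAT), the E-box (CACGTG), and a MEF2-like motif (CTA and TAG with any 4 bases between) on either strand, and none of the marked motifs overlap.
Klf2: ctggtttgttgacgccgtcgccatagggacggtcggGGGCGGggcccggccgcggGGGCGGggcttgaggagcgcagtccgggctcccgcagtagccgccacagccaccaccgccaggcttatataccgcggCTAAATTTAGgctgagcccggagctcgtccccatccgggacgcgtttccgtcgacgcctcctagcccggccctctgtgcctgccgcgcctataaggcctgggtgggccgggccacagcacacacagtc
Klf6: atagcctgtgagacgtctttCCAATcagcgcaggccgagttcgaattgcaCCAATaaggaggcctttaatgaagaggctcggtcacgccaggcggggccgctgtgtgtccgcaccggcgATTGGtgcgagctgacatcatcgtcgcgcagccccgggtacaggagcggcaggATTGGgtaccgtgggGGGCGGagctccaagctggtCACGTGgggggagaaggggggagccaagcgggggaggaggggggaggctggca
Klf15: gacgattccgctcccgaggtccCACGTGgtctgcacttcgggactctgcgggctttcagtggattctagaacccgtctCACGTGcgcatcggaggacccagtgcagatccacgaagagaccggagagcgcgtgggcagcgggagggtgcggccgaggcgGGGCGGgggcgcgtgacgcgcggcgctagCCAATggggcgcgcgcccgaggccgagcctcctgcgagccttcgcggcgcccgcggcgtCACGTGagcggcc

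The sequences differ in which motifs they hold. *Klf2* has 2 GC boxes and the MEF2-like motif, *Klf6* has 4 CCAAT boxes with 1 GC box and 1 E-box, and *Klf15* has 3 E-boxes, 1 of them across the start site, with 1 GC box and 1 CCAAT box. The motifs were searched on both strands of 32851 RefSeq promoters, from 250 bases before to 50 after the start. There, 35.7% held a GC box, 37.4% a CCAAT box, 7.15% an E-box, and 3.69% the MEF2-like motif. At least 3 E-boxes were found in 0.0883% of these windows and at least 4 CCAAT boxes in 1.06%. The promoter table matched 8 of the 10 genes, all but *Klf5* and *Klf10*, and each of the 8 held a GC box. The CACCC box (CACCC), the core of many Krüppel-like factor sites, was found in the windows of 5 of the 8 (*Klf2*, *Klf3*, *Klf7*, *Klf13*, and *Klf15*), beside 57.5% of all promoters. The glucocorticoid response element (GNACA and TGTNC with any 3 bases between) was found in none of the 8 and in 0.475% of all promoters, and no match says only that these letters are not in the window.

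By D7 *Klf2* and *Klf6* had risen again, and *Klf13* and *Klf15* were at their highest in WT cells. From D2 to D7, 3 of the 10 genes rose in WT cells (*Klf2*, *Klf6*, and *Klf13*) and 0 fell, beside 22.4% and 12.2% of all genes. For K36M the number that rose was 2 (*Klf2* and *Klf6*) and 0 fell, beside 21.5% and 14.9%. From D0 to D7, 2 rose in WT cells (*Klf13* and *Klf15*) and 1 fell (*Klf4*), beside 15.6% and 17.4%. In K36M cells 0 rose and 1 fell (*Klf5*) over the same 7 days, beside 18.6% and 16.0%.

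**Figure D3:**
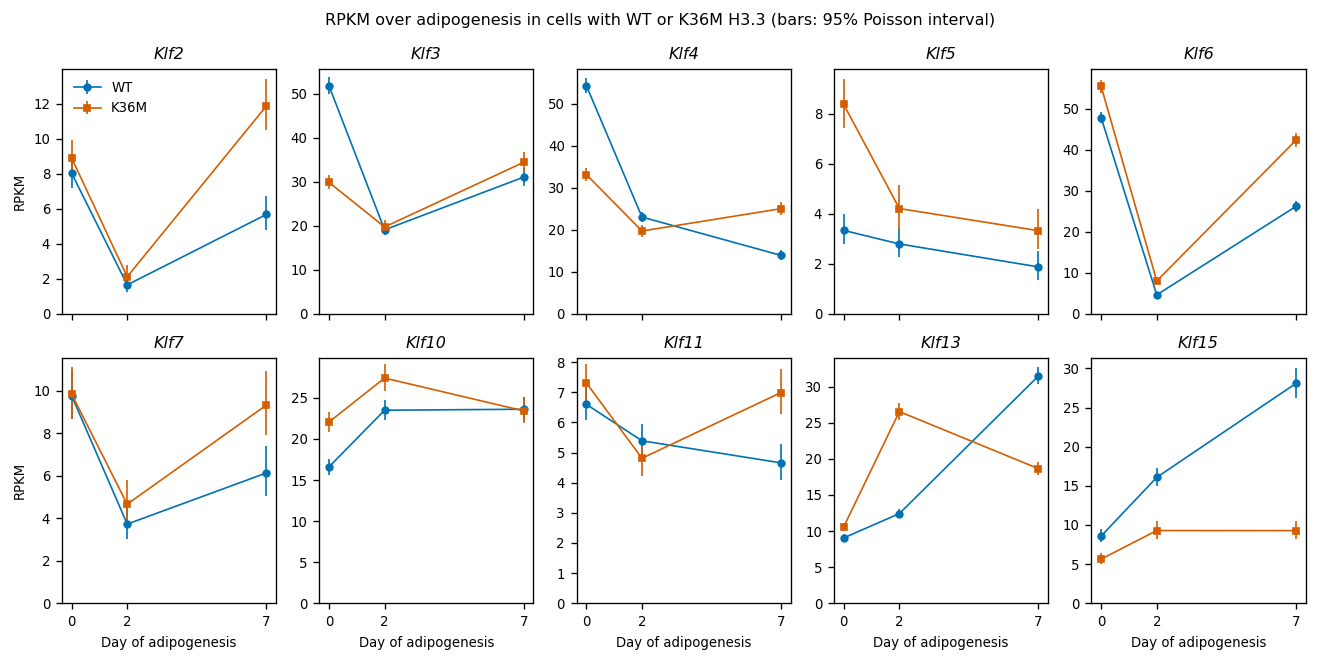
RPKM of the 10 genes at D0, D2, and D7 in WT and K36M cells, 1 library per point, with bars for the exact 95% Poisson interval of the reads. *Klf2*, *Klf3*, *Klf6*, and *Klf7* are lowest at D2 in both kinds of cells. At D7 *Klf13* and *Klf15* are at 31.5 and 28.1 in WT against 18.6 and 9.28 in K36M cells. At D2 *Klf13* is higher in K36M cells and *Klf15* is lower.

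Among the inhibitors, *Klf2* reached an RPKM of 5.66 at D7 in WT cells and 11.9 with K36M. From D0 to D7 its log2 ratio was -0.50 (-0.80 to -0.21) in WT and 0.41 (0.17 to 0.65) in K36M cells, so that it ended below its starting level in the first and above it in the second. *Klf3* reached 31.0 and 34.4, with log2 ratios to D0 of -0.74 (-0.85 to -0.63) and 0.21 (0.09 to 0.32), which again lie on opposite sides of 0. *Klf7* reached 6.13 in WT and 9.33 in K36M cells, and only in WT cells did the interval of its ratio to D0 exclude 0 (-0.67, -1.01 to -0.35). The log2 ratio of D7 over D0 in K36M cells minus that in WT cells was 0.92 (0.54 to 1.29) for *Klf2*. It was 0.94 (0.78 to 1.10) for *Klf3* and 0.59 (0.16 to 1.02) for *Klf7*. In size the K36M ratio was the smaller one for all 3. Over the 10946 genes that reached an RPKM of 1 in each of the 4 libraries the same difference had a median of 0.04, and it passed 1 in either direction in 19.7% of them.

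Among the promoters, *Klf4* declined through the course in WT cells, to 13.9 at D7, whereas in K36M cells it reached 25.0. Its log2 ratio of D7 over D2 was -0.73 (-0.87 to -0.59) in WT and 0.35 (0.21 to 0.49) in K36M cells. *Klf5* was at 1.87 and 3.32. *Klf6* reached 26.1 and 42.3, which is 2.51 (2.35 to 2.68) and 2.41 (2.26 to 2.56) above D2 on the log2 scale.

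*Klf13* and *Klf15* were both lower in K36M than in WT cells at D7. *Klf15* was already lower with K36M at D0 and D2, whereas *Klf13* was higher with K36M on those days. *Klf13* rose from D2 to D7 in WT cells by 1.34 (1.25 to 1.43) and was lower at D7 than at D2 with K36M (log2 ratio -0.51, -0.61 to -0.41). *Klf15* was 0.80 (0.66 to 0.95) above its D2 level in WT cells, and in K36M cells it was level with D2, with 9.29 and 9.28 and an interval of -0.25 to 0.25. Over the whole course the response in K36M cells minus that in WT cells was -0.98 for *Klf13* (-1.13 to -0.84) and -0.99 for *Klf15* (-1.29 to -0.69). The adipocyte markers summed to an RPKM of 3503 in WT and 201 in K36M cells at D7, and their part in these differences was not tested.

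*Klf10*, TGF-β-inducible, was at 23.6 in WT and 23.4 in K36M cells at D7, and the interval of their ratio included 0. *Klf11* was at 4.66 and 6.99.

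K36M and WT cells of the same day or treatment were compared next. In each comparison 1 of the 10 genes was over 2-fold higher, and 0 to 2 were lower. At D0, 1 was higher in K36M cells (*Klf5*) and 0 were lower, beside 14.8% and 12.0% of all genes. At D2, 1 was higher (*Klf13*) and 0 were lower, beside 22.2% and 9.90%. At D7, 1 was higher (*Klf2*) and 1 lower (*Klf15*), beside 19.7% and 13.2%. With ectopic PPARγ and DMSO, 1 was higher (*Klf5*) and 2 lower (*Klf4* and *Klf15*), beside 23.9% and 8.31%, and with Rosi 1 was higher (*Klf5*) and 2 lower (*Klf3* and *Klf15*), beside 28.4% and 12.6%. With genes below an RPKM of 1 in both libraries left out, 5.02% of genes were higher and 6.36% lower at D0. At D2 it was 11.2% and 4.37%, and at D7 11.7% and 8.46%. With ectopic PPARγ it was 5.09% and 3.11% under DMSO, and 7.02% and 12.1% under Rosi. The call of *Klf3* with Rosi was lost when libraries were rescaled by the median ratio.

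In *Nsd2* KD over Ctrl cells at D0, 2 of the 10 were higher (*Klf5* and *Klf13*) and 3 lower (*Klf2*, *Klf7*, and *Klf15*), beside 13.5% and 18.1%. At D2, 1 was higher (*Klf5*) and the same 3 genes were lower, beside 12.0% and 18.5%. With genes below an RPKM of 1 in both libraries left out, 6.61% were higher and 10.8% lower at D0. At D2 it was 4.88% and 9.57%.

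**Figure D4:**
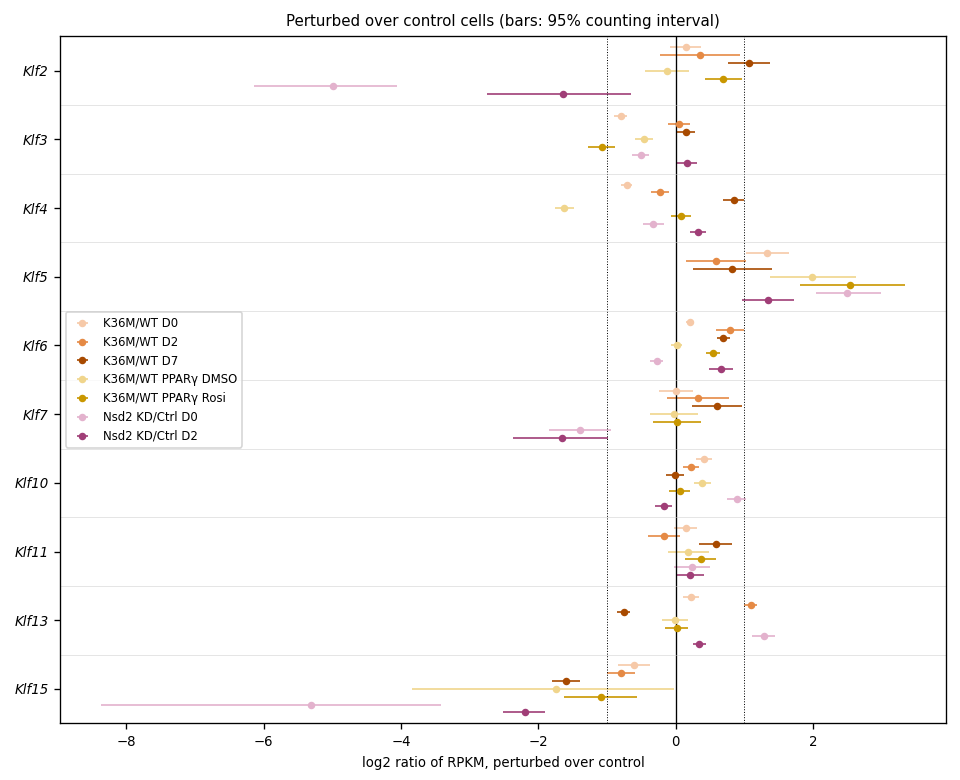
Log2 ratio of RPKM in perturbed over control cells for each gene in 5 comparisons of K36M with WT cells and 2 of *Nsd2* KD with Ctrl cells, with bars for the 95% counting interval and dotted lines at 2-fold. All 7 points of *Klf5* lie right of 0 and all 7 of *Klf15* lie left of it.

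*Klf5* was higher in perturbed than in control cells in all 7 comparisons. These share no library, but the days or treatments of an experiment compare the same transduced cells. The cells with PPARγ also derive from the same WT and K36M cells, so the 7 comparisons are not independent. Its RPKM was 8.38 against 3.33 at D0, 4.21 against 2.79 at D2, and 3.32 against 1.87 at D7 in K36M and WT cells. With ectopic PPARγ it was 2.95 against 0.746 under DMSO and 3.89 against 0.666 under Rosi. In KD and Ctrl cells it was 7.65 against 1.35 at D0 and 6.27 against 2.47 at D2. The perturbed library was the higher one in every pair, and the interval excluded 0 in 7 of 7. The log2 ratio was 1.33 (1.02 to 1.65), 0.59 (0.16 to 1.03), and 0.83 (0.26 to 1.41) at D0, D2, and D7. It was 1.98 (1.38 to 2.63) under DMSO and 2.55 (1.82 to 3.35) under Rosi. It was 2.50 (2.04 to 2.99) and 1.34 (0.97 to 1.73) for *Nsd2* KD. *Klf5* had few reads in some control libraries, with 28 and 19 reads in the 2 PPARγ libraries with WT H3.3.

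*Klf15* took the opposite course and was lower in perturbed cells in all 7. Its RPKM in K36M and WT cells was 5.64 against 8.58 at D0, 9.29 against 16.1 at D2, and 9.28 against 28.1 at D7. With ectopic PPARγ it was 0.0716 against 0.241 under DMSO, from 4 and 12 reads, and 1.45 against 3.06 under Rosi. In KD and Ctrl cells it was 0.0500 against 1.99 at D0 and 2.64 against 12.1 at D2. The log2 ratio of K36M over WT was -0.61 (-0.83 to -0.38) at D0, -0.79 at D2 with an upper bound of -0.59, and -1.60 (-1.80 to -1.40) at D7. Under DMSO it was -1.75 with an interval of -3.84 to -0.03, and under Rosi -1.08 (-1.63 to -0.56). For *Nsd2* KD it was -5.31 at D0, with an interval of -8.38 to -3.42 that rests on 2 reads, and -2.20 (-2.51 to -1.90) at D2.

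Across the transcriptome a few percent of genes kept 1 direction. Of the 13580 genes that reached an RPKM of 1 in any library, 4.53% were higher in perturbed cells in all 7 comparisons and 3.55% were lower in all 7. A ratio over 2-fold in at least 5 of the 7, as *Klf5* and *Klf15* had, was seen in 3.14% of genes for the upward and 2.04% for the downward direction. None of the other 8 genes kept 1 direction in all 7. The calls of *Klf15* over 2-fold with ectopic PPARγ were lost when an RPKM of 1 was added to both libraries.

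*Klf2* and *Klf7* set *Nsd2* KD apart from K36M. *Klf2* had 9 and 11 reads in the KD libraries against 326 and 39 in the Ctrl libraries, with a log2 ratio of -5.00 (-6.14 to -4.06) at D0 and -1.64 (-2.75 to -0.64) at D2. In K36M over WT cells its ratio was 0.15 (-0.08 to 0.38) at D0, 0.36 (-0.22 to 0.94) at D2, and 1.07 (0.76 to 1.37) at D7. *Klf7*, the other inhibitor that was low in KD cells, had a log2 ratio of -1.39 (-1.85 to -0.94) at D0 and -1.65 (-2.37 to -0.98) at D2. In K36M over WT cells the interval of *Klf7* included 0 at D0 and D2 and with both PPARγ treatments, and the ratio was 0.60 (0.24 to 0.97) at D7. The difference between the effects of KD and of K36M was not tested.

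The other members differed between perturbed and control cells by less, or in directions that changed. *Klf3* was lower in K36M cells at D0 by 0.80 on the log2 scale (interval -0.89 to -0.70) and its largest ratio was -1.07 (-1.27 to -0.88) under Rosi. *Klf4* ran from -1.62 (-1.76 to -1.48) under DMSO to 0.85 (0.70 to 1.00) at D7. *Klf6* lay between -0.28 and 0.80 in the 7 comparisons. *Klf10* lay between -0.18 and 0.89 and *Klf11* between -0.16 and 0.59. *Klf13* was 1.10 (1.00 to 1.19) above WT in K36M cells at D2 and -0.76 (-0.85 to -0.66) from it at D7, so its ratio turned within the course. In *Nsd2* KD cells *Klf13* was higher by 1.28 (1.11 to 1.45) at D0 and by 0.35 (0.25 to 0.44) at D2.

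The 2 control lines themselves were not alike at D0, which sets a scale for these ratios. Ctrl cells at D0 had 6 of the 10 genes more than 2-fold below WT cells at D0 (*Klf4*, *Klf5*, *Klf6*, *Klf11*, *Klf13*, and *Klf15*) and 0 above, beside 12.0% of all genes up and 23.0% down. At D2 no member differed over 2-fold between the 2 control lines, beside 12.2% up and 15.6% down. Ctrl libraries were low over all genes, by a median of -0.24 at D0 and -0.11 at D2 on the log2 scale. With each library rescaled by its median, 4 members and not 6 were over 2-fold at D0, without *Klf6* and *Klf11*, and 44.5% in place of 34.3% of the genes over 2-fold at D0 were higher in Ctrl cells. The largest difference between the controls at D0 was that of *Klf15*, with 1.99 in Ctrl and 8.58 in WT cells (log2 ratio -2.11, -2.46 to -1.78), and the next was that of *Klf4* (-2.03, -2.14 to -1.92). The H3.3 transgene and the shRNA vector differ together between these lines and cannot be told apart.

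Whether a ratio was larger in size than that between the controls was counted at D0 and D2. These ratios share the WT or the Ctrl library. The count was made for the members only, so without a share of all genes it shows nothing particular to them. At D0 the ratio of K36M over WT was larger in size than the ratio between the controls for 2 of the 10 genes (*Klf3* and *Klf5*), and that of KD over Ctrl for 5 (*Klf2*, *Klf5*, *Klf7*, *Klf10*, and *Klf15*). At D2 it was larger for 7 of the 10 in either comparison. *Klf5* was in all 4 of these sets, but at D0 its K36M ratio of 1.33 (1.02 to 1.65) was level in size with its control ratio of -1.30 (-1.83 to -0.80). For *Klf3* at D0 the K36M ratio of -0.80 (-0.89 to -0.70) and the control ratio of -0.72 (-0.81 to -0.62) had overlapping intervals. The median size over the 10 genes was 0.32 for K36M at D0, 1.09 for KD at D0, and 1.08 between the controls at D0. At D2 it was 0.34, 0.50, and 0.24.

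*Klf11* and *Klf15* were the members that rose with Rosi in both kinds of cells with ectopic PPARγ. In WT cells 2 of the 10 rose over 2-fold from DMSO to Rosi (*Klf11* and *Klf15*) and 0 fell, beside 17.0% of all genes up and 16.2% down. In K36M cells 5 rose (*Klf2*, *Klf4*, *Klf11*, *Klf13*, and *Klf15*) and 0 fell, beside 18.3% and 15.0%. With genes below an RPKM of 1 in both libraries left out, 9.96% rose in WT cells and 7.90% did so with K36M. The median log2 ratio of the 10 genes was 0.48 in WT and 0.87 in K36M cells, where it was 0.04 and -0.03 over all genes that reached an RPKM of 1 in both libraries. The summed RPKM of 7 adipocyte markers was 121 under DMSO and 3012 under Rosi in WT cells, and 72.9 and 1205 with K36M. That of the 4 smooth muscle markers was 1772 and 383, and 1491 and 474. The part of these cell markers in the responses of the members was not tested.

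**Figure D5:**
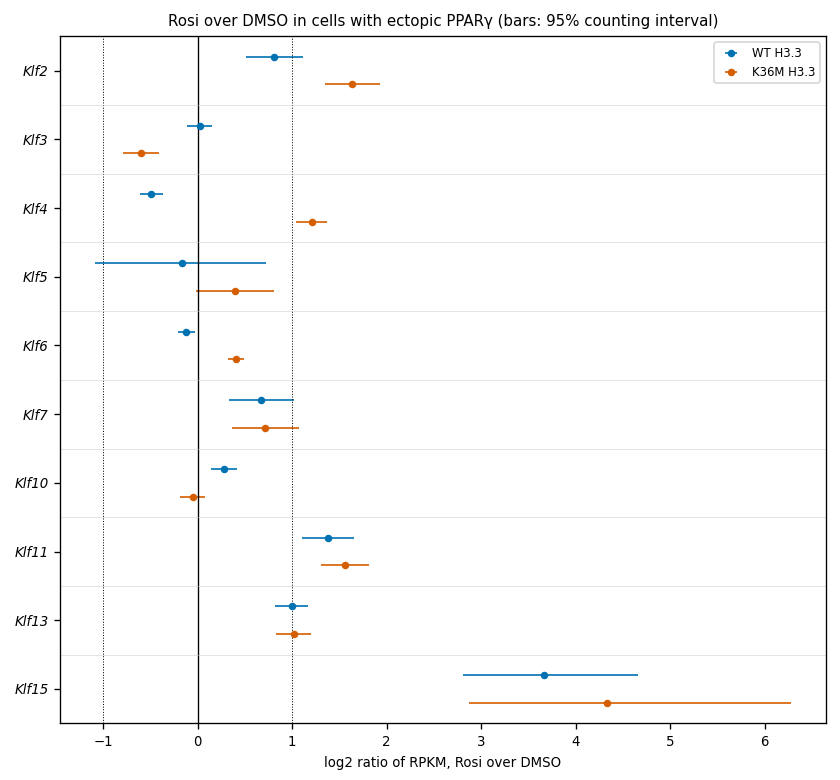
Log2 ratio of RPKM with Rosi over DMSO for each gene in WT and K36M cells with ectopic PPARγ, with bars for the 95% counting interval and dotted lines at 2-fold. *Klf11* and *Klf15* lie right of the 2-fold line in both kinds of cells, and the 2 points of *Klf4* lie on opposite sides of 0.

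Among the inhibitors, *Klf2* had an RPKM of 4.03 under DMSO and 7.06 under Rosi in WT cells (log2 ratio 0.81, 0.51 to 1.12), and 3.68 and 11.4 in K36M cells (1.63, 1.35 to 1.93). *Klf3* had 21.1 and 21.4 in WT cells (0.02, -0.11 to 0.15) and 15.4 and 10.2 in K36M cells (-0.60, -0.79 to -0.41). *Klf7* had 4.52 and 7.20 in WT cells and, with K36M, 4.43 and 7.28, with nearly equal ratios of 0.67 and 0.72 whose difference was 0.04 (-0.44 to 0.52). The difference between the 2 kinds of cells was 0.82 (0.42 to 1.23) for *Klf2* and -0.62 (-0.85 to -0.39) for *Klf3*.

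Among the promoters, *Klf15* had 0.241 under DMSO and 3.06 under Rosi in WT cells, from 12 and 116 reads, a 12.7-fold rise (log2 ratio 3.67, 2.81 to 4.66). In K36M cells it had 0.0716 and 1.45, from 4 and 42 reads (4.34, 2.87 to 6.28). *Slc2a4*, its known target, had an RPKM of 0.0815 and 1.22 in WT cells and, with K36M, 0.189 and 0.196. *Klf13* went from 3.11 to 6.18 in WT cells (0.99, 0.82 to 1.17) and from 3.09 to 6.25 in K36M cells (1.01, 0.83 to 1.20), so only the second passed 2-fold although the 2 responses differed by 0.02 (-0.23 to 0.27). *Klf4* had 23.6 and 16.8 in WT cells (-0.49, -0.61 to -0.37) and 7.67 and 17.7 in K36M cells (1.21, 1.05 to 1.37). The 2 Rosi levels of *Klf4* were alike and the DMSO levels were not, and the responses differed by 1.70 (1.50 to 1.90). *Klf6* had 25.8 and 23.7 in WT cells and, with K36M, 26.1 and 34.6.

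*Klf11* had 1.97 under DMSO and 5.13 under Rosi in WT cells (1.38, 1.11 to 1.65), and 2.25 and 6.61 in K36M cells (1.56, 1.31 to 1.81). The responses of *Klf11* differed by 0.18 (-0.18 to 0.54) between the 2 kinds of cells. Its relative *Klf10* had 13.6 and 16.5 in WT cells and, with K36M, 17.8 and 17.2. The responses of the 10459 genes that reached an RPKM of 1 in each of the 4 libraries differed between K36M and WT cells by a median of -0.09, and by over 1 in either direction in 8.98% of them.

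The rest of the family did not move as one. Of the other 7 Krüppel-like factor genes in the files, *Klf9* and *Klf16* were the abundant ones, and *Klf1*, *Klf12*, *Klf14*, and *Klf17* stayed below an RPKM of 0.6 in all 14 libraries. *Klf9*, a close relative of *Klf13* that glucocorticoids induce, had 20.3, 42.2, and 69.7 at D0, D2, and D7 in WT cells, and with K36M it had 17.3, 34.1, and 24.4. It was lower in perturbed cells in all 7 comparisons, as *Klf15* was, and over 2-fold lower in 1 of them, K36M over WT at D7 (log2 ratio -1.51, -1.62 to -1.41). In Ctrl cells *Klf9* rose from 6.28 to 39.0 between D0 and D2 and in KD cells from 5.94 to 24.4. From D0 to D2 in WT cells, 2 of the 7 rose and 3 fell, beside 13.6% and 25.2% of all genes, but *Klf1* rose from 2 to 5 reads and *Klf14* fell from 1 to 0 reads.

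In the related SP family, which binds the same GC-rich sites, *Sp1* lay between an RPKM of 11.8 and 30.2 and *Sp3* between 12.8 and 33.7, while *Sp6* and *Sp9* varied more. Of 9 genes, 4 were over 2-fold higher with K36M at D0 and 0 lower, beside 14.8% and 12.0% of all genes. In KD over Ctrl cells at D2 it was 5 and 1, beside 12.0% and 18.5%. Some rest on few reads, such as *Sp8* with 1 read in WT and 6 in K36M cells at D0. *Sp9* had an RPKM of 0.432 in WT and 6.39 in K36M cells at D0, and *Sp6* had 0.450 in Ctrl and 8.50 in KD cells. *Sp6* and *Sp9* were over 2-fold higher in perturbed cells in all 7 comparisons, which held for 0.368% of the 13580 genes. Both are low in controls, with as few as 1 read in the Ctrl library at D2.

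A list of partners of the members and of adipogenic target genes was counted in the same way. It also holds general genes of fat cell formation, such as *Fabp4*, *Adipoq*, *Lpl*, and *Ucp1*. *Fabp4* and *Adipoq* are among the adipocyte markers as well, so the counts are not particular to targets of the members. Of the 16 listed genes, 10 rose and 3 fell by D2 in WT cells, and *Fabp4* and *Lpl* were the most abundant of those that rose. It was 10 and 0 with K36M, 9 and 1 in Ctrl cells, and 5 and 2 in KD cells. The shares of all genes were 13.6% and 25.2%, 16.5% and 19.6%, 17.3% and 23.4%, and 16.9% and 24.5%. *Cebpa*, a target of *Klf3*, had an RPKM of 6.64 and 208 at D0 and D2 in WT cells and of 0.239 and 4.80 in KD cells. *Cebpb*, a target of *Klf4*, had 137 and 196 in WT cells and 77.1 and 284 in KD cells. *Pparg*, on which *Klf2* and *Klf5* act, had 13.4 and 66.7 in WT cells and 26.4 and 16.9 in KD cells. These WT and KD cells come from different experiments and vectors, so the pairs do not give the effect of KD. In KD over Ctrl cells *Cebpa* was over 2-fold lower at D0 and D2, and *Pparg* over 2-fold higher at D0. Of the 16 genes, 3 were over 2-fold higher and 3 lower in Ctrl than in WT cells at D0, and 0 and 5 at D2. Of all genes it was 12.0% and 23.0%, and 12.2% and 15.6%. Of the same 16 genes, 2 were higher and 8 lower in K36M than in WT cells at D7, and 2 and 8 in KD than in Ctrl cells at D2, beside 19.7% and 13.2%, and 12.0% and 18.5%, of all genes.

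Glucocorticoid-induced genes were counted beside *Klf15* and *Klf9*. Between D0 and D2, of 8 listed genes, 5 rose and 1 fell in WT cells, 6 and 0 with K36M, 5 and 1 in Ctrl cells, and 6 and 1 in KD cells, against the same shares of all genes. The gene that fell in WT, Ctrl, and KD cells was *Sgk1*. *Zbtb16* had an RPKM of 0.0640 and 37.0 at D0 and D2 in WT cells, and *Fkbp5* had 11.8 and 56.8. From D2 to D7, after dexamethasone was withdrawn, 1 of the 8 rose and 1 fell in WT cells, and 0 rose and 5 fell in K36M cells, beside 22.4% and 12.2%, and 21.5% and 14.9%, of all genes. *Fkbp5* was at 107 in WT and 38.8 in K36M cells at D7, and *Tsc22d3* at 65.0 and 23.5.

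Early response genes, which growth factors switch on within minutes to hours, were counted beside *Klf10* and *Klf11*. Of 11 such genes, 2 rose and 2 fell by D2 in WT cells, beside 13.6% and 25.2% of all genes. With K36M at D7, 8 were over 2-fold above WT and 0 below, beside 19.7% and 13.2%. From D2 to D7, 0 rose and 7 fell within WT cells, and 1 rose and 0 fell within K36M cells. The shares of all genes were 22.4% and 12.2%, and 21.5% and 14.9%. From D0 to D2, *Klf10* and *Klf11* stayed within 2-fold in all 4 kinds of cells.

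Over the 14 libraries some members were alike in their pattern, as measured by Pearson's r of log2(RPKM + 1). The libraries come from 3 experiments and share cells, depth, and stage, so r is a description. The most alike pair of members was *Klf2* and *Klf7* (r = 0.92), followed by *Klf10* and *Klf13* (0.83) and *Klf13* and *Klf15* (0.79). *Klf2* and *Klf6* had an r of 0.77. The least alike were *Klf2* and *Klf5*, with -0.33.

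Among the 10519 genes that reached an RPKM of 5 in any library, the 3 most like *Klf2* were *Bst2* (r = 0.93), *Klf7* (0.92), and *Mlkl* (0.92). *Bst2* shared the lowest value in KD cells at D0 and the highest in K36M cells at D7, at an RPKM of 5.09 and 378. For *Klf3* they were *Zfpm2* (0.95), *Dclk1* (0.94), and *Pak3* (0.93), all highest in WT cells at D0 as *Klf3* was. For *Klf7* they were *Sptbn1* (0.96), *Mlkl* (0.94), and *Anxa7* (0.93), each lowest in KD cells at D2.

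The genes most like *Klf4* were *Tsr2* (0.89), *Bend6* (0.88), and *Slc30a4* (0.86), the loosest match of the 10. *Klf5* was most like *Xrn2* (0.93), *Nufip1* (0.90), and *Fzd6* (0.90), which were lowest in the same PPARγ libraries with WT H3.3. *Klf6* was most like *Lats2* (0.94), *Nuak2* (0.94), and *Bdh2* (0.93). *Lats2*, a kinase of the Hippo pathway, had its lowest RPKM of 5.38 in WT cells at D2 and its highest of 22.3 in K36M cells at D0, as *Klf6* did. *Klf13* was most like *Scrn3* (0.95), *Serinc4* (0.93), and *Xdh* (0.92), and *Klf15* most like *Kitl* (0.96), *Klhdc10* (0.95), and *Atrn* (0.95). *Kitl* was also highest in WT cells at D7. *Klf10* was most like *Alcam* (0.91), *Rtf2* (0.90), and *Mrpl10* (0.89), and *Klf11* most like *Cep162* (0.95), *Arhgef2* (0.94), and *Gm15441* (0.94).

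The order of the 14 levels could be resolved to different extents. Adjacent libraries in the order differed beyond counting error in 9 of 13 steps for *Klf6* and *Klf13*, and in 7 for *Klf15*. For *Klf2* and *Klf4* they did so in 6 and for *Klf3* in 5. For *Klf7*, with at most 279 reads, only 2 of 13 steps could be told apart. *Klf5* and *Klf11* had 3 and *Klf10* had 4.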

How the data were processed

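The 14 RNA-Seq libraries of brown preadipocytes were used. ChIP-Seq was not analysed here. The authors deposited RPKM for 29082 RefSeq transcripts per library, and the methods describe mRNA purified with Dynabeads, made into double-stranded cDNA and into libraries with NEBNext Ultra II, which does not mark strand. The submitters' processing notes name CASAVA 1.8.2, SICER, and mm9. The aligner, the counter, and any filter of the RNA-Seq are not given in the sources used here.

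Symbols were matched for 28432 transcripts through RefSeq (GRCm38.p6, names only). Transcripts without a symbol were kept under their own identifier and counted as genes, which gave 23109 genes in all. Gene bounds came from GENCODE M1. Whole reads were recovered from ratios of RPKM between libraries for 26940 of the 26946 transcripts with reads in 2 or more libraries, and 99.8% of the lengths this implies were whole within 0.01 bases. The samples were grouped by their labels, with 1 library per group, and no test was run. A gene was counted where either library had an RPKM above 0 and called at over 2-fold. Ratios have 95% Clopper-Pearson intervals, levels have exact Poisson intervals, and differences of log2 ratios have normal intervals (at least 5 reads each). Intervals cover counting error only. The scripts were tested on simulated data. Python 3.11.15, numpy 2.4.6, pandas 2.3.3, and scipy 1.17.1 were used.

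The members and the gene lists were chosen with earlier results of these data known. The rule was to name all 10 members, the 3 most alike genes per member, and up to 4 listed genes over 2-fold with the highest RPKM. Other listed genes, such as *Sp6*, *Sp9*, *Klf9*, *Slc2a4*, *Pparg*, *Cebpb*, and *Dlk1*, were named after their values were seen, and the counts over 7 comparisons were added then. Alternatives were an RPKM filter of 1, RPKM above 0 in both libraries, pseudocounts of 0.1 and 1, rescaling by the median ratio, intervals that exclude 1, and the mean over transcripts. The list of TGF-β-induced genes is not reported here.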

Additional observations from a re-analysis of the deposited data

Results flagged for a closer look

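In 10 cases a member's ratio lay on opposite sides of 0 in 2 kinds of cells under the same contrast, with both counting intervals clear of 0. With 1 library per condition the difference was not tested against culture variation, and its cause was not tested. How often other genes did the same was not counted, so these cases are not shown to be particular to the members.

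From D0 to D7, *Klf2* had a log2 ratio of -0.50 in WT and 0.41 in K36M cells, and *Klf3* had -0.74 and 0.21. From D2 to D7, *Klf4* had -0.73 in WT and 0.35 in K36M cells, and *Klf13* had 1.34 and -0.51. From DMSO to Rosi, *Klf4* had -0.49 in WT and 1.21 in K36M cells, and *Klf6* had -0.12 and 0.41. From D0 to D2, *Klf5* had 0.87 in Ctrl and -0.29 in KD cells, and *Klf10* had 0.87 and -0.20. Over the same days the 2 control lines were also opposed, with -1.24 in WT and 0.39 in Ctrl cells for *Klf4* and -0.29 and 0.83 for *Klf11*.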

How the results depend on the processing

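The number of members over 2-fold was counted in 19 comparisons under each alternative. It stayed within 1.5 times in all 19 with an RPKM filter of 1, with RPKM above 0 in both libraries, with a pseudocount of 0.1, with intervals that exclude 1, and with the mean over transcripts. It did so in 18 with libraries rescaled by the median ratio and in 17 with a pseudocount of 1. For K36M over WT at D7 the count was 2, and it was 1 under rescaling and 1 with the pseudocount of 1, which both lost *Klf2*. For *Nsd2* KD at D2 over D0 it was 5, and it was 2 with the pseudocount of 1, which lost *Klf4*, *Klf7*, and *Klf13*. With the pseudocount of 1, *Klf15* also lost its calls for K36M over WT with DMSO and with Rosi. A pseudocount shrinks ratios of low values by construction, and rescaling moves all ratios of a comparison by its median shift, 0.12 on the log2 scale for K36M over WT at D7. Rescaling also lost *Klf3* for K36M over WT with Rosi (2 in place of 3) and *Klf6* and *Klf11* for Ctrl over WT at D0 (4 in place of 6), and it added *Klf7* for Ctrl at D2 over D0 (6 in place of 5). Rescaling turned the direction of 5 of 190 single ratios, none over 0.05 in size, and a pseudocount turned 0.

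No paired analysis was possible because no result comes from a test and no condition has a second library. Depth limits *Klf15* in KD cells at D0 (2 reads) and with PPARγ, K36M, and DMSO (4 reads), and *Klf2* in KD cells (9 and 11 reads), so the size of these ratios is known only within wide intervals.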
